A study of Mus musculus with 28 samples.

Results

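The 9 genes described here mark the early steps from a dividing neural precursor to a young neuron. Of these, 5 are markers of neural progenitors (*Nes*, *Vim*, *Sox2*, *Hes5* and *Fabp7*) and 4 are markers of immature neurons (*Sox4*, *Sox11*, *Dcx* and *Igfbpl1*). They were chosen by gene symbol from the 23038 genes listed for every library, and all 9 were found in every library and passed the filter on low counts in every comparison. Their level was followed across ages, brain regions and *Nova1* genotypes.

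RNA-seq of polyadenylated RNA was performed on brain tissue from mice on a C57BL/6J background (labelled BL6). The *Nova1* hu/hu mice are homozygous for the I197V substitution in the neuronal RNA-binding protein NOVA1, introduced by CRISPR/Cas9 together with silent changes, and the *Nova1* wt/wt mice carry the unedited mouse gene on both alleles. Midbrain was taken at E18.5 from 6 hu/hu and 6 wt/wt mice, midbrain at P21 from 4 and 4, and cortex at P21 from 4 and 4, which gave 28 libraries. No group was treated with an agent, and the tissue was dissected whole, so each library mixes neurons, glia, vessels and any attached membranes. The labels do not give the sex of each mouse. The paper's reporting summary says that male-female pairs entered the transcriptome data in equal numbers, and sex was not part of the fits.

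The libraries held between 18550922 and 45134998 counts, with medians of 22400090 at E18.5 and, at P21, of 35888131 in midbrain and 31893254 in cortex. The dissections carried the region they were labelled with: all 12 genes of a midbrain list (among them *Th*, *En1* and *Foxa2*) were lower and all 9 genes of a cortex list (among them *Emx1* and *Tbr1*) were higher in cortex than in midbrain at P21. The summed level of the midbrain list was 193 TPM (counts per exon length, scaled to the same total in each library) in P21 midbrain and 17.8 in P21 cortex (medians), and that of the cortex list was 68.9 and 364. Transcripts of the choroid plexus varied more between libraries than any other cell type list, with summed levels from 93.2 to 3747 TPM at E18.5 and, at P21, from 24.4 to 3076 in midbrain and 1170 to 2226 in cortex. No pair of libraries held identical values.

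Neural progenitors, called radial glia while they still line the ventricle, divide and give rise first to neurons and later to astrocytes and oligodendrocytes. Notch signalling and SOX2 hold them in the progenitor state, and their processes contain the intermediate filaments nestin and vimentin and the lipid-binding protein FABP7. A daughter cell that leaves the cycle switches on SOX4 and SOX11 and then doublecortin, which binds the microtubules of migrating and extending neurons, and these genes are switched down again as the neuron matures. By the third postnatal week most neurons of the midbrain and cortex have been born, while nestin, vimentin, SOX2, HES5 and FABP7 remain known in some astrocytes and vessel cells, and neurogenesis goes on in the lining of the forebrain ventricle and in the hippocampus.

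The genes lie on 7 chromosomes (GENCODE annotation of GRCm38). *Sox2*, *Sox4* and *Sox11* each consist of a single exon, while *Hes5* has 2 exons, *Nes* and *Fabp7* have 4, *Igfbpl1* has 5, and *Vim* and *Dcx* have 7. *Dcx* is the X-linked gene of the group, at chrX:143855842-143933311 on the minus strand, and *Igfbpl1* lies at chr4:45809468-45826923 on the minus strand. *Sox2*, at chr3:34650405-34652461, lies inside the non-coding gene *Sox2ot* on the same strand but shares 0 exon bases with it. Antisense transcripts cover 31.8% of the exon bases of *Hes5* (Gm20421) and 54.6% of those of *Sox4* (Gm26735). Reads of these antisense transcripts cannot be told apart from *Hes5* or *Sox4* reads, because no source used here says whether reads were counted by strand.

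*Sox4* and *Sox11* encode 2 of the 3 SoxC transcription factors, and both were among the genes that changed most with age. Their upstream sequences are shown to compare these single-exon genes, which lie on different chromosomes (RefSeq sequence, GRCm38.p6, 5′ to 3′ on the minus strand of each). Capitals mark the letters CCAAT or their reverse complement ATTGG, the core of the box bound by the factor NF-Y. The *Sox4* sequence is chr13:28953714-28953949 and the *Sox11* sequence is chr12:27342719-27342968.
Sox4 upstream: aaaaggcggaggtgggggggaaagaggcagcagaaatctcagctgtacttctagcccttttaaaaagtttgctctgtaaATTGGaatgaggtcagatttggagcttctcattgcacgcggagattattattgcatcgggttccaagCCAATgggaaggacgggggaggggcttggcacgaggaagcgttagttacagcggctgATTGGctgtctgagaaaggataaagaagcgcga
Sox11 upstream: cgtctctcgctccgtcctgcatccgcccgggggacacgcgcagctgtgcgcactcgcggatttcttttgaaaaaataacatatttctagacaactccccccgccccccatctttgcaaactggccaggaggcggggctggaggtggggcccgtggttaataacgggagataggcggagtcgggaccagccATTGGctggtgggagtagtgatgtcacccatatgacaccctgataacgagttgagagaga
The *Sox4* sequence holds these letters 171, 104 and 47 bases before the RefSeq start at 28953699. It ends before the start of the GENCODE gene, which lies upstream of the RefSeq one, so a further match 8 bases before the RefSeq start is not shown. The *Sox11* sequence holds them 60 bases before its RefSeq start. Both also hold the E-box CAGCTG at a like distance, 211 bases before the RefSeq start in *Sox4* and 210 in *Sox11*. The GENCODE start of *Sox4* is at 28953713, upstream of the RefSeq one, and that of *Sox11* is at 27342574, downstream of it. Counted from the GENCODE starts, the distances are not alike.

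For *Hes5*, the Notch target, the stretches that hold the letters GTGGGAA (or TTCCCAC on the other strand), which is the core bound by the Notch effector RBPJ, are shown in capitals. They lie at chr4:154960686-154960715 and chr4:154960829-154960858 on the plus strand, with the motif 226 and 83 bases before the start at 154960923. A further RefSeq start, at 154960626, lies upstream of both, so they lie inside the longest annotated extent of the gene.
Hes5 distal stretch: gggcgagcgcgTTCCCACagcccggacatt
Hes5 proximal stretch: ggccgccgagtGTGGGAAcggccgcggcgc
Of the 9 genes, 8 had at least 1 upstream window of 250 bases in the RefSeq table. A gene was counted if any of its windows held the motif, whereas the shares are of single windows. *Dcx* had more than 1 window, with starts at 143933219 and 143933124. GTGGGAA occurred on either strand in 1 of the 8, *Hes5*, and in 5.42% of all 32817 windows. CCAAT occurred in 7 of the 8, all but *Nes*, against 33.8% of all windows, and CAGCTG in 2 of the 8, against 13.0%. ACAAAG, a core bound by Sox factors, was found before *Sox2*, *Hes5* and *Dcx* (16.5% of all windows), and TATAAA before *Vim* and *Dcx* (12.4%). No match overlapped that of another motif, the motifs were picked after the sequences had been read, and a match of letters is a description of the window.

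In E18.5 midbrain the radial glia genes *Fabp7* and *Vim* stood highest. *Fabp7*, which encodes the brain lipid-binding protein, had 3227 TPM ± 251 (SD, n = 12), and *Vim*, which encodes the filament protein vimentin, had 657 ± 43.9. The neuronal genes *Dcx* (194 ± 17.0), *Sox4* (168 ± 13.7) and *Sox11* (137 ± 15.99) came next, and the ranges of neighbours in this order overlapped. *Sox2* (56.3 ± 3.52), *Igfbpl1* (56.1 ± 7.46) and *Hes5* (49.7 ± 9.94) overlapped as well, and *Nes* was lowest at 33.5 ± 2.35.

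At P21 the order was a different one. In P21 midbrain *Fabp7* (159 ± 29.5, n = 8) and *Vim* (84.4 ± 10.6) still came first, followed by *Sox2* (26.9 ± 2.38) and *Hes5* (19.6 ± 3.98), whose ranges overlapped, and then *Sox4* (13.0 ± 0.809), *Nes* (6.88 ± 1.04), *Sox11* (5.24 ± 0.593), *Dcx* (3.97 ± 0.237) and *Igfbpl1* (0.438 ± 0.218). In this order only the neighbours *Sox2* and *Hes5*, and *Nes* and *Sox11*, had overlapping ranges. P21 cortex had *Fabp7* (144 ± 31.1, n = 8) and *Vim* (77.0 ± 4.09) first, then *Hes5* (30.02 ± 6.54), *Sox2* (23.8 ± 3.13) and *Sox4* (22.8 ± 1.16) with overlapping ranges, *Sox11* (10.9 ± 0.797), *Dcx* (8.65 ± 0.360), and *Igfbpl1* (5.58 ± 0.829) with *Nes* (5.37 ± 0.834) overlapping it. The order between genes depends on the exon length used: the deposited length of *Vim* is 1834 bases against 4743 in GENCODE, that of *Sox4* 2953 against 4795 and that of *Fabp7* 762 against 1250, whereas comparisons of a gene with itself do not depend on it.

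**Figure D1:**
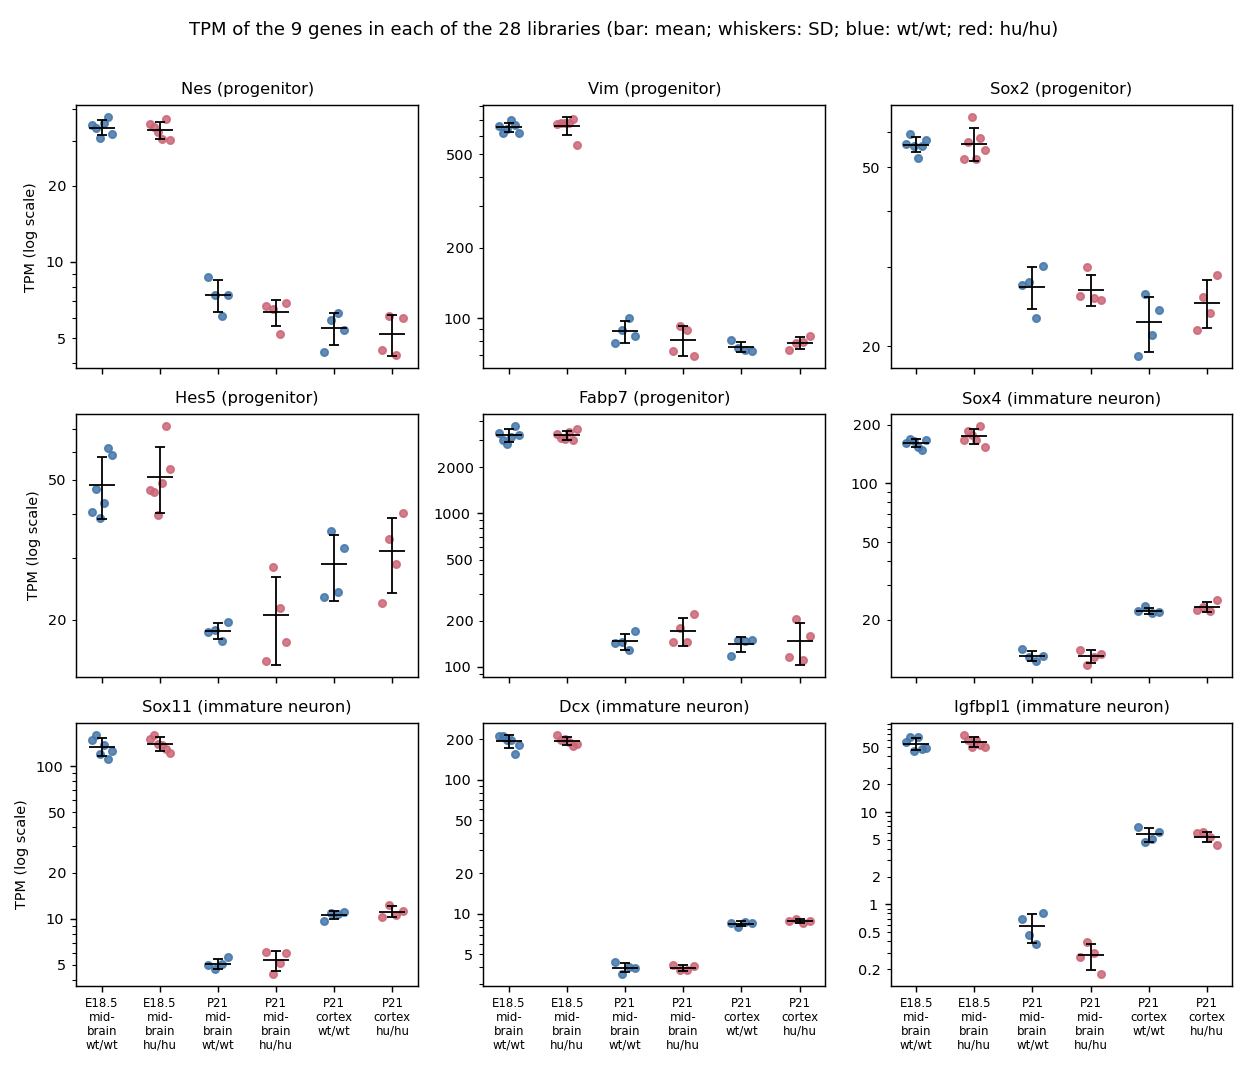
TPM (log axis) of each of the 9 genes in each of the 28 libraries, by age, region and genotype, with wt/wt in blue and hu/hu in red. The black bars are group means and the whiskers SDs. Every gene stands higher at E18.5 than at P21, and the immature neuron genes stand higher in P21 cortex than in P21 midbrain.

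The first comparison asked how the genes changed in midbrain between the late embryo and the juvenile mouse, over 12 libraries at E18.5 and 8 at P21 with genotype as a covariate. All 9 genes fell, which is a call that 43.3% of all 16330 tested genes shared. The fall was at least 2-fold in 8 of the 9, against 14.6% of all genes, and at least 10-fold in 5 (*Igfbpl1*, *Dcx*, *Sox11*, *Fabp7* and *Sox4*), against 0.759% of all genes. No range of TPM at E18.5 overlapped that at P21 for any of the 9, and a range lower at P21 without overlap was found for 36.8% of all genes. The median log2 fold change was −4.96 for the 4 immature neuron genes and −2.09 for the 5 progenitor genes, beside −0.02 for all tested genes. In whole tissue, fewer cells that express a gene and less RNA per cell cannot be told apart.

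*Igfbpl1*, *Dcx* and *Sox11*, all immature neuron genes, had the largest falls of the 9. *Igfbpl1*, which encodes a secreted relative of the insulin-like growth factor-binding proteins, ranged from 45.7 to 69.0 TPM at E18.5 (median 55.4) and from 0.179 to 0.812 TPM at P21 (median 0.383), where a library held only 6 to 30 of its counts. Its log2 fold change was −6.79 ± 0.157 (SE, adjusted p = 2.76e-23, edgeR, adjusted by Benjamini-Hochberg over all tested genes), or 111-fold lower, the fifth-lowest of all tested genes. Within wt/wt mice alone it was −6.31 and within hu/hu mice alone −7.37.

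*Dcx*, which encodes the microtubule-binding protein doublecortin, ranged from 156 to 217 TPM at E18.5 (median 199) and from 3.59 to 4.35 at P21 (median 3.99). It fell 42.6-fold (log2 fold change −5.41 ± 0.066, adjusted p = 7.69e-29). The spread between P21 libraries was small, with an SD of 5.97% of the mean, and no library came near the embryonic range.

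The SoxC factors *Sox4* and *Sox11*, which drive neuronal gene expression in newborn neurons, fell with them. *Sox11* ranged from 112 to 161 TPM at E18.5 (median 138) and from 4.39 to 6.06 at P21 (median 5.07), a 22.8-fold fall (−4.51 ± 0.082, adjusted p = 1.76e-25). *Sox4* ranged from 149 to 197 TPM (median 166) and then from 11.7 to 14.1 (median 12.9), an 11.2-fold fall (−3.48 ± 0.047, adjusted p = 4.85e-28). *Sox12*, the remaining SoxC gene, fell less, with a log2 fold change of −2.43 ± 0.040 and mean levels of 59.1 and 9.53 TPM.

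Among the progenitor genes the falls differed widely in size. *Fabp7* ranged from 2849 to 3722 TPM at E18.5 (median 3200) and from 128 to 221 at P21 (median 145), a 17.7-fold fall (−4.14 ± 0.089, adjusted p = 6.37e-24). *Vim* went from 550 to 709 TPM (median 670) to 68.9 to 101 (median 86.5), a 6.76-fold fall (−2.76 ± 0.067, adjusted p = 6.72e-23). Both stayed the 2 most abundant of the 9 genes at P21 despite the fall.

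*Nes*, which encodes the progenitor filament nestin, ranged from 30.2 to 37.2 TPM at E18.5 (median 33.8) and from 5.21 to 8.73 at P21 (median 6.81), a 4.24-fold fall (−2.09 ± 0.065, adjusted p = 1.48e-20). Of the 5 progenitor genes, the transcription factors *Hes5* and *Sox2* fell least. *Hes5*, the repressor that Notch signalling switches on, ranged from 39.0 to 71.3 TPM (median 47.0) and then from 15.3 to 28.3 (median 18.6), a 2.20-fold fall (−1.14 ± 0.118, adjusted p = 1.61e-09). *Sox2*, which maintains the progenitor state, ranged from 52.1 to 64.7 TPM (median 56.1) and then from 23.1 to 30.1 (median 26.6), a 1.81-fold fall (−0.86 ± 0.048, adjusted p = 4.03e-15). *Hes5* also varied most between the E18.5 libraries, with an SD of 19.98% of the mean, against 6.25% for *Sox2*.

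The scale moves these values slightly. The ratios of mean TPM sit 0.20 lower on the log2 scale than the fitted fold changes (median difference −0.20 over all tested genes), so *Sox2* fell 2.09-fold and *Igfbpl1* 128-fold as ratios of mean TPM. Each of the 9 kept its direction and its call without each single library in turn.

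**Figure D2:**
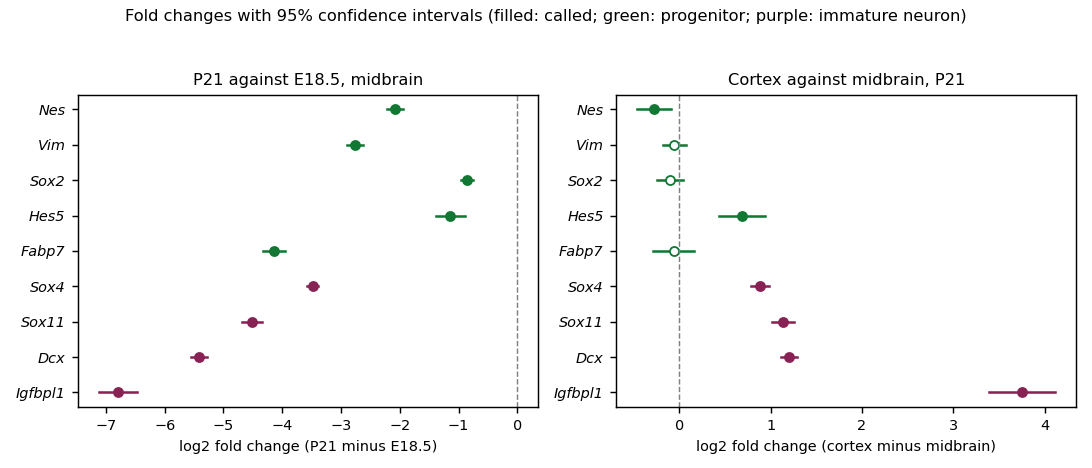
Fitted log2 fold changes of the 9 genes with 95% confidence intervals, between ages in midbrain on the left and between regions at P21 on the right, with progenitor genes in green and immature neuron genes in purple. All 9 lie left of 0 for age, from −6.79 for *Igfbpl1* to −0.86 for *Sox2*, while for region the 4 immature neuron genes and *Hes5* lie right of 0.

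Related genes showed the same comparison from other sides. All 24 genes of a proliferation list fell in midbrain with age (median log2 fold change −2.82), led by the mitotic kinase *Bub1* (−4.54) and the topoisomerase *Top2a* (−4.38, from a mean of 57.5 to 2.42 TPM). *Mki67*, the cell cycle marker Ki-67, fell by 4.19 on the log2 scale. Of 12 tested genes of proneural factors and intermediate progenitors, 11 fell and 1, the stress-induced *Gadd45g* (1.15), rose (median −2.22), with the largest falls in *Eomes* (−4.01), a marker of intermediate progenitors, and *Tead2* (−3.09), a partner of the Hippo pathway effectors.

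In a list of 25 other immature neuron and neurite growth genes, 23 fell and 1, the adhesion molecule *Cntn2* (1.37), rose (median −1.63). *St8sia2*, which adds polysialic acid to the adhesion molecule NCAM, had the largest fall (−4.93), followed by the β-tubulin *Tubb2b* (−4.23). The neuronal β-tubulin *Tubb3* fell by 1.37, from a mean of 2211 to 742 TPM, and the doublecortin-like kinases *Dclk1* and *Dclk2* fell by 1.02 and 1.06. All 15 tested genes of a mature neuron list rose instead (median 1.58), led by the vesicular glutamate transporter *Slc17a7* (5.30) and the heavy neurofilament *Nefh* (4.20), while *Rbfox3*, which encodes the neuronal nuclear antigen NeuN, rose by 0.73.

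Radial glia and Notch genes beyond the chosen ones moved less uniformly. Of 20 radial glia and progenitor genes, 16 fell and 4 rose (median −0.62). Those that rose were *Hopx* (0.94), *Lfng* (0.74), *Prom1* (0.68) and *Slc1a3* (0.20), the last of which encodes an astrocyte glutamate transporter. The largest falls were those of the matrix protein *Tnc* (−3.79) and the transcription factor *Pax6* (−2.23). Of 24 Notch pathway genes, 18 fell and 5 rose (median −0.48). The largest changes were the rise of *Heyl*, a Notch-regulated repressor (1.84), and the fall of *Hes6* (−1.62), and the other genes that rose were *Hey1*, *Numb*, *Lfng* and *Notch4*. *Hes1*, which acts beside *Hes5*, fell by 0.47.

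The families of the 9 genes moved in different directions. Of 10 intermediate filament genes, *Nes*, *Vim* and the internexin gene *Ina* (−0.62) fell and 7 rose (median 1.13), led by the astrocyte filament *Gfap* (4.70, from a mean of 12.3 to 279 TPM) and *Nefh*. Of 17 Sox genes, 11 fell and 5 rose (median −0.55), with *Sox11* at one end and the oligodendrocyte factor *Sox10* (3.62) at the other. Of 10 Hes, Hey and related repressors, 4 fell and 5 rose, with the largest rises in *Bhlhe41* (2.75) and *Hes3* (2.49).

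Of the 6 fatty acid-binding and related genes tested, 5 fell, led by *Fabp7* and the retinoid-binding *Crabp1* (−2.37). Of the 6 doublecortin family genes tested, 4 fell and 1, *Dclk3* (0.36), rose, and *Dcx* had the largest change. Of the 7 insulin-like growth factor-binding protein genes tested, 4 fell and 2 rose, and the rise of *Igfbp6* (1.57) was the largest change after the fall of *Igfbpl1*. The family lists include the 9 genes themselves.

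Markers of several other cell types moved over the same interval. The summed TPM of 8 oligodendrocyte genes went from a median of 135 (124 to 164) to 23423 (22673 to 25447), that of 10 astrocyte genes from 956 (801 to 1152) to 5302 (5085 to 5442), and that of 8 microglia genes from 131 (106 to 164) to 366 (345 to 399). The summed TPM of 8 meningeal and fibroblast genes fell from 586 (407 to 631) to 159 (147 to 191). Vessel markers moved less as sets. Of 8 endothelial genes 3 rose, *Slco1a4* (3.98) and *Ly6c1* (2.97) most, and 2 fell (median log2 fold change 0.04). Their summed TPM was 201 (180 to 245) and then 296 (280 to 300), without overlap of the ranges. Of 8 mural genes 5 rose and 2 fell (median 0.29), with a summed TPM of 306 (268 to 369) and then 364 (305 to 384). None of these lists had a gene at 0 in all libraries of an age. Sequencing depth was also lower at E18.5. The part of cell type makeup and depth in the falls of the 9 genes was not tested.

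**Figure D3:**
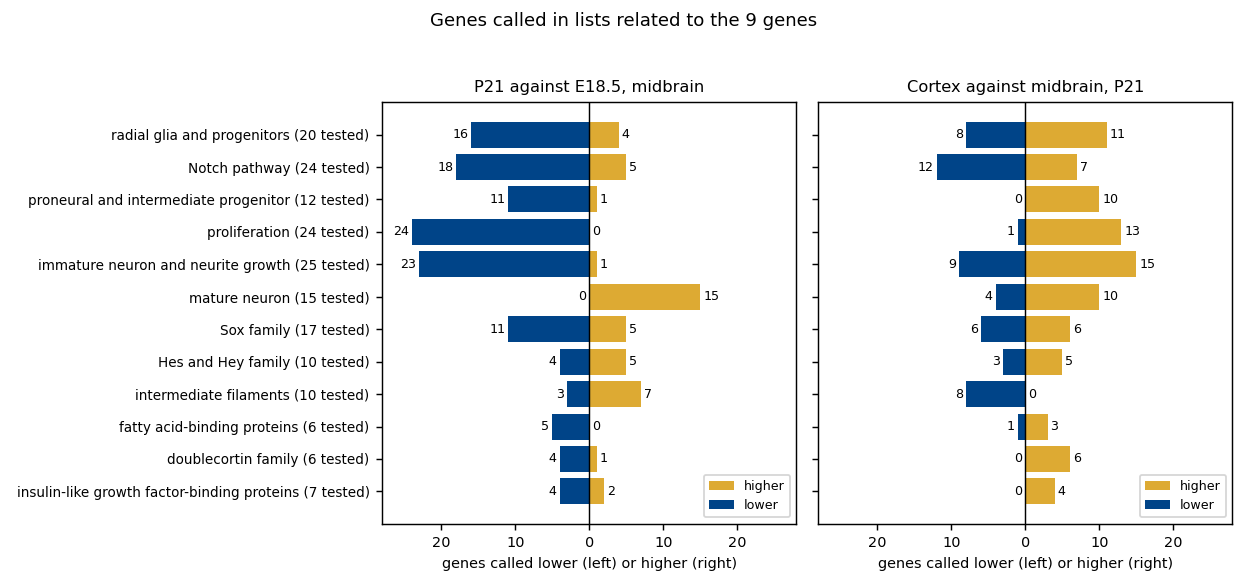
Number of genes called higher (right, yellow) and lower (left, blue) in 12 lists related to the 9 genes, for age in midbrain (left panel) and region at P21 (right panel), with the number tested beside each name. For age the proliferation list has 24 lower and 0 higher and the mature neuron list 15 higher and 0 lower; for region the doublecortin family has 6 higher and 0 lower and the intermediate filaments 8 lower and 0 higher.

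The second comparison asked how cortex and midbrain differed at P21, over 8 libraries of each with genotype as a covariate. The 4 immature neuron genes were all higher in cortex, and their ranges of TPM did not overlap between the regions. The 5 progenitor genes were divided, with *Hes5* higher, *Nes* slightly lower, and *Vim*, *Sox2* and *Fabp7* not passing the test. In all, 5 of the 9 were higher in cortex, a call made for 37.7% of all 16345 tested genes, and 1 was lower, against 37.9%. The difference reached 2-fold higher in 3 (*Igfbpl1*, *Dcx* and *Sox11*), against 7.56% of all genes. Ranges higher in cortex without overlap were found for 4 of the 9 and for 19.2% of all genes. The median log2 fold change was 1.17 for the immature neuron genes and −0.06 for the progenitor genes, beside −0.00 for all tested genes.

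*Igfbpl1* differed most. In P21 cortex it ranged from 4.40 to 6.97 TPM (median 5.63), with 131 to 200 counts in a library, against the midbrain range of 0.179 to 0.812 TPM given above. The log2 fold change was 3.75 ± 0.176 (adjusted p = 1.49e-15), or 13.5-fold higher, and it was 3.33 within wt/wt and 4.28 within hu/hu mice.

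The remaining immature neuron genes differed by smaller but tightly measured amounts. *Dcx* ranged from 7.93 to 9.20 TPM in cortex (median 8.69), 2.30-fold above midbrain (1.20 ± 0.041, adjusted p = 2.22e-18). *Sox11* ranged from 9.65 to 12.4 TPM (median 10.8), 2.19-fold above midbrain (1.13 ± 0.059, adjusted p = 9.96e-15). *Sox4* ranged from 21.5 to 25.1 TPM (median 22.3), 1.84-fold above midbrain (0.88 ± 0.046, adjusted p = 1.33e-14).

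Even in cortex these genes were far below their level in E18.5 midbrain, which is a different region and was not tested against it. The summed TPM of the 4 genes had a median of 558 in the embryonic midbrain (465 to 607), against 22.7 in juvenile midbrain (20.3 to 24.5) and 47.3 in juvenile cortex (46.2 to 51.0). The summed TPM of the 5 progenitor genes had a median of 3998 (3618 to 4542), 287 (265 to 339) and 278 (237 to 350) in the same order, so that the P21 regions overlapped for the progenitor genes and not for the immature neuron genes.

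Of the progenitor genes, *Hes5* ranged from 22.3 to 40.1 TPM in cortex (median 30.4) and was 1.61-fold higher than in midbrain (0.69 ± 0.121, adjusted p = 1.94e-05), although the ranges overlapped. *Nes* ranged from 4.29 to 6.28 TPM (median 5.66) and was lower (−0.28 ± 0.089, adjusted p = 0.00724), again with overlapping ranges. The *Nes* call was lost within hu/hu mice alone (−0.20, adjusted p = 0.147).

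For the other 3 progenitor genes the intervals bound any difference between the regions. The log2 fold change of *Vim* was −0.06 (95% confidence interval −0.18 to 0.07, adjusted p = 0.403) and that of *Fabp7* was −0.06 (−0.28 to 0.16, adjusted p = 0.595). That of *Sox2* was −0.10 (−0.24 to 0.04, adjusted p = 0.171), and without P21 cortex hu/hu replicate 4 it was called lower (−0.14, adjusted p = 0.0642).

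The related lists also differed between the regions at P21. Of 12 tested proneural and intermediate progenitor genes, 10 were higher in cortex and 0 lower (median 0.94), led by *Neurod6* (4.71) and *Neurod2* (3.95), which are also expressed in mature cortical neurons. Of 24 proliferation genes, 13 were higher and 1, the mitotic kinase *Aurka* (−0.46), was lower (median 0.31), with *Mcm5* (0.86) and *Rrm2* (0.72) first. Of 25 immature neuron and neurite growth genes, 15 were higher and 9 lower (median 0.15), with *Dclk1* (1.71) and *Cntn2* (−1.49) at the ends. Of 15 mature neuron genes, 10 were higher and 4 lower (median 0.63), led by *Slc17a7* (3.73) and *Camk2a* (3.23).

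All 6 tested doublecortin family genes were higher in cortex (median 0.95), and *Dclk3* (1.85) and *Dclk1* exceeded *Dcx* itself. Of the 7 tested insulin-like growth factor-binding protein genes, 4 were higher, *Igfbpl1* and *Igfbp6* (2.46) most. Of 17 Sox genes, 6 were higher and 6 lower. The largest Sox difference was that of *Sox14* (−9.15), a factor of brainstem and midbrain GABA neurons, and *Sox10* was lower as well (−1.22).

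Of 20 radial glia and progenitor genes, 11 were higher and 8 lower (median 0.19), led by the forebrain factors *Emx2* (2.55) and *Nr2e1* (2.44). Of 24 Notch pathway genes, 7 were higher and 12 lower (median −0.19), with *Heyl* (−1.48) and the Notch antagonist relative *Numbl* (1.05) first, and of 10 Hes, Hey and related genes 5 were higher and 3 lower, with *Heyl* and *Hes3* (−1.28) first. None of the 10 intermediate filament genes was higher in cortex and 8 were lower (median −0.74), with *Nefh* (−3.00) and *Prph* (−2.94) first. Of the 6 fatty acid-binding and related genes, 3 were higher and 1, *Fabp5* (−0.13), was lower, with *Crabp1* (1.04) and *Fabp3* (0.70) first.

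Oligodendrocyte and astrocyte markers stood on the other side of this comparison. All 8 oligodendrocyte genes and 9 of 10 astrocyte genes (all but the glutamate transporter *Slc1a2*) were lower in cortex, with a median summed oligodendrocyte level of 7080 TPM (6732 to 7554) against 23423 in midbrain and a median summed astrocyte level of 3711 (3437 to 3907) against 5302. All 8 microglia genes were higher, with a median summed level of 540 (484 to 584) against 366. The part of these differences in cell type makeup in the results for the 9 genes was not tested.

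The third comparison asked whether the I197V substitution changed the 9 genes, with hu/hu compared with wt/wt mice within each age and region. None of the 9 was called in any of the 3 comparisons, and neither was any of the genes tested (edgeR called 0% of 15540 genes at E18.5, and at P21 0% of 15972 in midbrain and 0% of 15767 in cortex). At an unadjusted p under 0.05 edgeR had 201 genes (1.29%), 426 (2.67%) and 450 (2.85%) in the same order, and 0, 1 and 0 of the 9. The TPM ranges of the genotypes overlapped for each of the 9 genes in all 3 comparisons, and they did not overlap for 0.0515%, 1.92% and 2.02% of all genes. DESeq2 also called 0 genes in each comparison, with 296, 413 and 417 genes at an unadjusted p under 0.05. The paper, with edgeR at the same thresholds, reports *Gkn3* as lower in P21 midbrain of hu/hu mice, without naming the edgeR test. The edgeR test used here (glmQLFTest) did not call it. With replicate number as a block, which pairs the genotypes, edgeR had 813, 735 and 897 genes at an unadjusted p under 0.05 and called 4 genes in P21 midbrain, *Cdr1* (higher in hu/hu mice) and *Cbln3*, *Gabra6* and *Mybpc3* (lower), none of them among the 9. *Cbln3* (log2 fold change −1.21 with the block) and *Gabra6* (−1.61) are markers of cerebellar granule cells. The summed TPM of 8 such markers, these included, ranged in P21 midbrain from 135 to 173 in wt/wt and from 136 to 151 in hu/hu mice. None of the 8 was at 0 in all libraries, and such a sum need not follow its single genes. The part of granule cells in the results for the 9 genes was not tested.

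In E18.5 midbrain the log2 fold changes of the 9 genes lay between −0.04 (*Nes*) and 0.11 (*Sox4*). *Sox4* ranged from 149 to 170 TPM in wt/wt mice (median 163) and from 155 to 197 in hu/hu mice (median 172). The ranges overlapped, and the hu/hu library was the higher one in 5 of 6 same-numbered pairs, a count not taken for all genes. The fitted log2 fold change was 0.11 (95% confidence interval −0.00 to 0.22, unadjusted p = 0.0515, adjusted p = 0.9999, edgeR), and a two-sided exact permutation test of log2 CPM gave p = 0.0519 before adjustment over the 27 tests of this kind. When each of the 12 libraries was left out in turn, the exact permutation test gave values from p = 0.00866 to p = 0.104, before adjustment. The difference in log2 CPM then ranged from 0.073 to 0.133, so single libraries moved it both ways. Without hu/hu replicate 6 the exact permutation test gave p = 0.00866, the lowest value. Without wt/wt replicate 6 the exact permutation test gave p = 0.0346. The widest interval at this age was that of *Hes5*, at 0.08 (−0.22 to 0.37).

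In P21 midbrain *Igfbpl1* had the largest difference between the genotypes. Its level was 0.703, 0.473, 0.372 and 0.812 TPM in the wt/wt libraries (16, 14, 10 and 30 counts) and 0.272, 0.394, 0.300 and 0.179 TPM in the hu/hu libraries (9, 16, 9 and 6 counts). The hu/hu library was lower in all 4 same-numbered pairs, a count not taken for all genes. However, hu/hu replicate 2 lay above wt/wt replicate 3, so the ranges overlapped. The log2 fold change was −1.02 ± 0.374 (95% confidence interval −1.82 to −0.23, unadjusted p = 0.0151, adjusted p = 0.99996, edgeR), the 12th lowest of 15972 genes, and the two-sided exact permutation test gave p = 0.0571. Without wt/wt replicate 4 it was −0.80 (unadjusted p = 0.0794, edgeR).

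The difference of *Igfbpl1* was not seen at the higher levels of the other tissues. In P21 cortex its level was 6.97, 4.74, 5.11 and 6.10 TPM in the wt/wt libraries and 5.87, 6.02, 5.39 and 4.40 TPM in the hu/hu libraries, with overlapping ranges and a log2 fold change of −0.07 (−0.37 to 0.23). In E18.5 midbrain the log2 fold change was 0.05 (−0.17 to 0.28). The interaction of genotype with age was −1.08 ± 0.372 (unadjusted p = 0.00814, adjusted p = 0.99994) and that with region 0.95 ± 0.349 (unadjusted p = 0.0128, adjusted p = 0.9999), so neither passed the test across all genes. Over all tested genes, edgeR called 0% for the interaction with age and 0% for that with region, with 303 (1.86%) and 373 (2.28%) genes at an unadjusted p under 0.05, and DESeq2 called 0 for both.

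*Nes* and *Fabp7* leaned in opposite directions in P21 midbrain without passing the test. *Nes* had 8.73, 7.44, 6.11 and 7.39 TPM in wt/wt and 6.73, 6.53, 5.21 and 6.89 TPM in hu/hu mice, with the hu/hu library lower in all 4 pairs and a log2 fold change of −0.22 (−0.45 to 0.01). *Fabp7* had 143, 145, 128 and 170 TPM in wt/wt and 144, 177, 145 and 221 TPM in hu/hu mice, with the hu/hu library higher in all 4 pairs and a log2 fold change of 0.23 (−0.01 to 0.48). The genotype ranges overlapped for both genes. Exact permutation tests, which do not use the pairs, gave p = 0.200 for each. With the replicate block, which uses the pairs, neither gene was called. The share of all genes with every pair on the same side was not counted.

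The other genes lay nearer to 0 in P21 midbrain. *Dcx* had 4.35, 3.59, 4.04 and 3.94 TPM in wt/wt and 4.14, 3.82, 3.79 and 4.09 TPM in hu/hu mice, with a log2 fold change of −0.00 (−0.16 to 0.16). *Sox4* (−0.00, −0.17 to 0.17) and *Sox2* (−0.02, −0.19 to 0.16) had intervals of a like width, and *Sox11* (0.08, −0.13 to 0.29), *Vim* (−0.12, −0.32 to 0.09) and *Hes5* (0.16, −0.17 to 0.49) had wider ones. In P21 cortex the 9 log2 fold changes lay between −0.07 and 0.15, the highest being that of *Sox2* (0.15, −0.06 to 0.36). No gene of the related lists shown for age and region was called between the genotypes in any of the 3 comparisons.

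**Figure D4:**
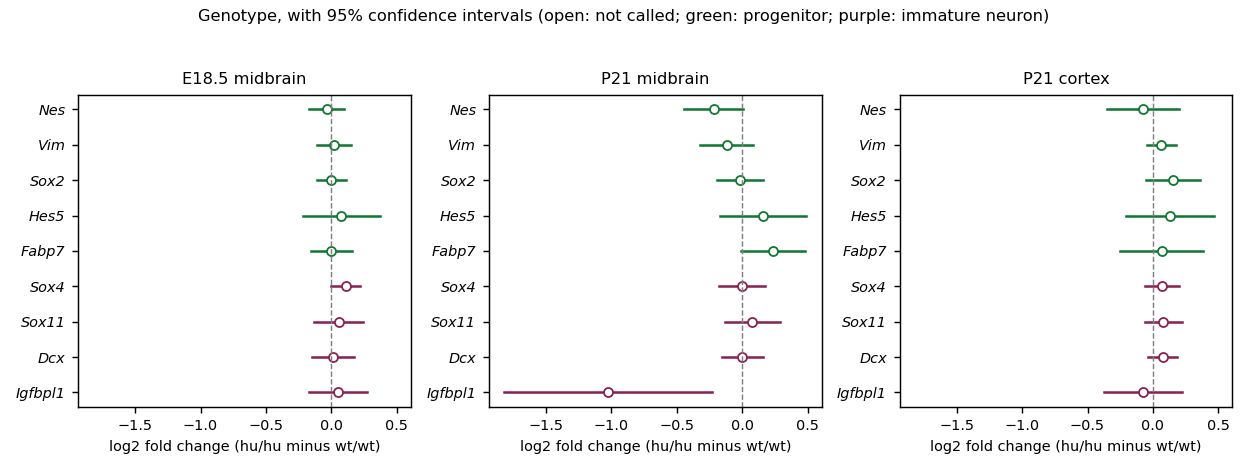
Fitted log2 fold changes of hu/hu against wt/wt mice for the 9 genes with 95% confidence intervals, in the 3 panels for age and region (open points: not called; green: progenitor; purple: immature neuron). All points are open and 26 of the 27 intervals include 0, the exception being *Igfbpl1* in P21 midbrain at −1.02 (−1.82 to −0.23).

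Across the whole set of 28 libraries the genes were also compared for how they deviated from the mean of their own group (log2 CPM, Pearson's r). Such values describe libraries that share replicate numbers, dissection and depth. The 36 pairs of genes had a median r of 0.05, with a median of 0.35 for the 10 pairs of progenitor genes, 0.24 for the 6 pairs of immature neuron genes and 0.02 for the 20 pairs across the sets. The highest were *Nes* with *Fabp7* (0.65), *Sox11* with *Dcx* (0.64) and *Sox2* with *Hes5* (0.57), and the lowest was *Hes5* with *Dcx* (−0.56). With replicate number also taken out, the medians were −0.00 for the progenitor pairs, 0.12 for the immature neuron pairs and 0.07 across the sets. That step leaves the hu/hu and wt/wt libraries of a number as mirror images. The values after it thus rest on genotype differences within numbers, which are fewer than the 28 libraries. *Nes* with *Fabp7* (0.65) and *Sox2* with *Hes5* (0.57) stayed as high, while *Sox11* with *Dcx* dropped to 0.25 and *Hes5* with *Dcx* went to 0.03. The lowest pair was then *Hes5* with *Sox11* (−0.60).

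Of 15261 genes, those whose deviations were most like those of *Dcx* were *Xpr1* (r = 0.871), *Hdgfrp3* (0.851) and *Map3k2* (0.843), and those most like *Sox11* were *Kdm5b* (0.835), *Rnd3* (0.777) and *Runx1t1* (0.775). Those most like *Hes5* were *Ddr1* (0.811), *Fam43b* (0.803) and *Zfp219* (0.797), and those most like *Fabp7* were *Clk1* (0.787), *Mycn* (0.741) and *Tnfrsf25* (0.704). For *Sox2* they were *Rrnad1* (0.789), *Ahdc1* (0.744) and *Rai1* (0.723). *Nes* was most like the mitotic cyclin *Ccnb2* (0.757), *Arfip1* (0.735) and *Sox7* (0.727). These values, and those of the closest genes named next, are the highest picked out of 15261 genes. How high such picked values run by chance was not tested.

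The closest gene was *Pou4f3* for *Vim* (0.751), *6530402F18Rik* for *Sox4* (0.724) and *9230110C19Rik* for *Igfbpl1* (0.727). When levels over all 28 libraries were compared instead, so that age and region dominate, several of the 9 genes stood among the closest to another. The 3 genes closest to *Sox4* were *Ybx1*, *Sox11* and *Dcx* (each 0.998) and those closest to *Sox11* were *Dcx*, *Sox4* and *Fnbp1l* (each 0.998), while *Dcx* was closest to *Cxadr* and *Hnrnpa1* (0.999). *Hes5* had the loosest match, at 0.909 with *6430527G18Rik*.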

How the data were processed

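For each library the authors deposited expected counts per gene, with RPKM values and the exon lengths behind them. Per the paper's methods, polyadenylated RNA was sequenced in pairs, aligned to mm10 with OLego and counted with Quantas. The annotation version is not given in the sources used here, nor whether counting used the strand. Recomputing the deposited RPKM from the counts and lengths gave a largest relative difference of 2.27e-13, so RPKM was used only as an alternative level. Counts were not whole for 751 to 2715 genes per library and were rounded for tests. TPM came from unrounded counts.

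Comparisons used edgeR 4.0.16 (glmQLFit and glmQLFTest, TMM factors, filterByExpr) in R 4.3.3, with limma 3.58.1 loaded, two-sided. A gene was called where p was under 0.05 and, after Benjamini-Hochberg adjustment over all genes tested, under 0.1. Age and region fits had genotype as a covariate. DESeq2 1.42.0, other factors, filters, a replicate block and leaving out each library were alternatives. Log2 CPM used a prior count of 2. The scripts were tested on simulated counts. Positions come from GENCODE on GRCm38, and 22959 of 23038 gene identifiers matched RefSeq.

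Genotypes shared replicate numbers. Same-numbered deviations from group means correlated at 0.256 to 0.497 for the embryos, 0.266 to 0.301 for juvenile midbrain and 0.251 to 0.310 for juvenile cortex, so the numbers pair the genotypes. Between regions same-numbered libraries correlated negatively, with medians of −0.146 in hu/hu and −0.168 in wt/wt mice, against 0.128 and 0.103 for other numbers. In both genotypes P21 midbrain libraries 1 and 2 correlated negatively with cortex libraries 1 and 2 and positively with cortex libraries 3 and 4. The reverse held for midbrain libraries 3 and 4. Between ages the medians were 0.140 and 0.106, against −0.089 and −0.058 for other numbers. The ranges overlapped, at −0.167 to 0.179 against −0.242 to 0.221 in hu/hu mice. In wt/wt mice they were −0.055 to 0.142 against −0.140 to 0.133. Libraries thus shared some variation across regions and ages, and its source was not tested. What a number marks is not stated, so p-values measure the spread between these libraries. The main fits, their intervals and the exact permutation tests did not use the pairs.

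All 9 genes are named in every comparison. Of each related list, the genes with the largest and next largest absolute fold change among those called are named, with a few relatives (such as *Sox12*, *Hes1* and *Mki67*). Genes that alone or as 1 of few moved against their list were named after their values were seen. The genes and lists were chosen with earlier results of these data known.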

Additional observations from a re-analysis of the deposited data

Results flagged for a closer look

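Of 54 groups of libraries (9 genes in 6 groups), 3 held a library far from the others of its group, where the gap to the nearest library was large for the group's range. Chance alone gives such a gap in about 1 of 20 groups, or in 2 to 3 of 54. *Vim* in E18.5 midbrain hu/hu replicate 6 was low at 550 TPM, where the group's median was 680 and its highest value 709 (gap over range 0.786, limit 0.625 for 6 libraries). *Sox2* in P21 midbrain hu/hu replicate 2 was high at 29.96 TPM against 25.4 to 25.9 in the other libraries of the group (0.898, limit 0.829 for 4 libraries). *Fabp7* in P21 cortex wt/wt replicate 1 was low at 118 TPM, where the group's median was 148 and its highest value 150 (0.902, same limit). None of the 3 genes was called between genotypes with or without that library.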

How the results depend on the processing

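All 9 genes stayed lower at P21 than at E18.5 under every alternative that could give them a value, and no called value changed sign. Requiring at least 10 counts in every library removed *Igfbpl1* from the comparisons with P21 midbrain, where its counts are few. With the replicate block, which pairs the genotypes by number, edgeR called 4 genes in P21 midbrain (1 higher, 3 lower, none among the 9, named above after their values were seen) against 0 without it, and the block left the count at 0 in the other 2 genotype comparisons. The block changed no call of the 9 genes. Within hu/hu mice alone 0 of the 9 genes were called lower in cortex, against 1 in all mice. Leaving out each library in turn gave 13869 to 13974 genes called for age and 12228 to 12348 for region, 9 genes of the 9 lower with age and 5 higher in cortex each time, 1 to 2 lower in cortex (2 without P21 cortex hu/hu replicate 4, which added *Sox2*) and 0 in each genotype comparison. Of the values of single genes under an alternative, 1773 kept their side of the threshold (values near 0 that were not called could change sign), 3 newly passed it and 1 (*Nes* in cortex, within hu/hu mice) lost it. Over all genes, the genotype log2 fold changes had median standard errors of 0.087 at E18.5 and, at P21, of 0.076 in midbrain and 0.077 in cortex, and 0.374 for *Igfbpl1* in P21 midbrain, which limits the differences that could be detected there.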
